A study of Mus musculus with 9 samples.

Results

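The expression of 10 marker genes of the interneurons of the retina was examined in RNA from whole mouse eyeballs. The bipolar cell markers were Trpm1, Prkca, Pcp2 and Cabp5, the markers of inhibitory amacrine cells were Gad1, Gad2, Slc32a1 and Slc6a9, and the horizontal cell markers were Calb1 and Onecut1. They were chosen by name, and all 10 were found among the 22587 genes in the tables. All samples were eyeballs of wild-type female BALB/C mice at postnatal day 56, and treatment lasted 2 weeks from the age of 6 weeks. The T.chuii group received scopolamine by intraperitoneal injection and Tetraselmis chuii, a green microalga, by mouth at 300 mg/kg. The DES group received the same injection with water only, and CON mice had water and no injection. Scopolamine, a blocker of muscarinic acetylcholine receptors, reduces tear secretion and serves to bring about a dry eye in mice. Each group had 3 libraries. Whether each library is a separate animal is not said in the labels. The p-values therefore rest on differences among libraries that may in part be technical.

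In the retina, photoreceptors pass their signal to bipolar cells, which pass it on to ganglion cells. Horizontal cells feed back on photoreceptor terminals, and amacrine cells act on bipolar and ganglion cells, mostly through the inhibitory transmitters GABA and glycine. In the dark, glutamate from photoreceptors binds the receptor mGluR6 on ON bipolar cells, whose G protein cascade holds the TRPM1 channel shut. Light stops the release of glutamate and the channel opens. Prkca encodes protein kinase C alpha, the usual marker of rod bipolar cells, and Pcp2 encodes a modulator of G protein signalling in ON bipolar cells. Cabp5 encodes a calcium-binding protein of rod bipolar cells and some cone bipolar cells.

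The 10 genes had reads in every library, as did every gene in the tables. None of the 10 passed the test in any of the 3 comparisons between groups. The libraries differed in their shares of retinal reads. Library totals ranged from 39.1 to 64.6 M reads. Reads of 14 rod genes made up 0.977%, 3.69% and 4.18% of the total in the T.chuii libraries, 1.73%, 4.85% and 3.74% in the DES libraries, and 3.77%, 1.69% and 3.82% in the CON libraries. T.chuii 1, DES 1 and CON 2 thus held the smallest rod shares, 1 library in each group. Reads of 7 corneal epithelium genes were highest in the same libraries, at 43202, 47377 and 75416 CPM (read counts scaled to library size), against 11302 to 30573 CPM in the other 6. Reads of 9 lens genes made up 11696 to 58516 CPM in the T.chuii libraries and 369 to 43068 CPM in the DES libraries, against 225 to 267 CPM in the CON libraries. In RNA of a whole organ, fewer cells of a type and less RNA per cell cannot be told apart.

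Of the 10 markers, 8 had their 3 lowest CPM values in T.chuii 1, DES 1 and CON 2, the exceptions being Trpm1 and Slc6a9. Of all 21287 genes tested, 2935 had this order, or 13.8%. All 14 rod genes, 9 of 9 cone genes, 8 of 9 ganglion cell genes and 13 of 14 other bipolar genes had it as well. So did 13 of 23 other amacrine genes and 5 of 8 other horizontal genes. The 3 libraries were singled out by the summed reads of these 14 rod genes, so the rod count was largely fixed in advance. Of 8 Müller glia genes, 4 had this order. Their sum was not low there, at 6321 to 7598 CPM in these 3 libraries against 4792 to 7753 CPM in the other 6. No gene of the pigment epithelium, melanocyte, corneal, lens, fast muscle or myelin lists had the order. The profiles of the markers beside those of tissue lists show the 3 columns of low values and the exception of Trpm1.

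**Figure D1:**
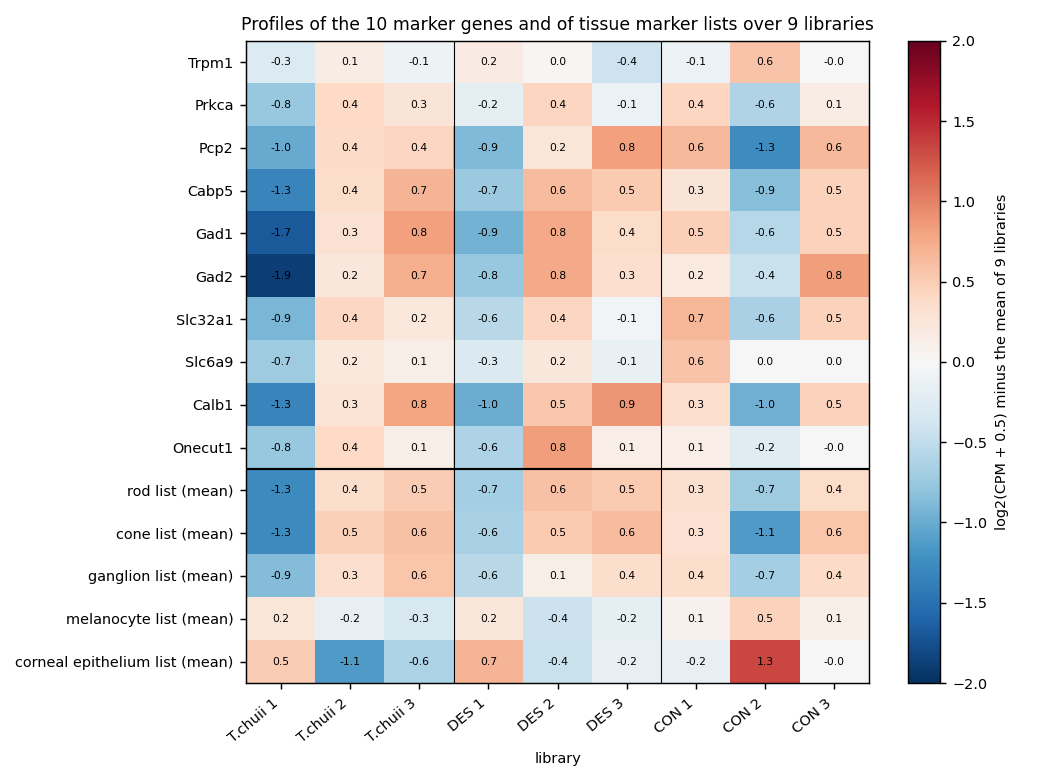
Heat map of the 10 marker genes and of the mean of 5 tissue lists (rows) in the 9 libraries (columns), as log2(CPM + 0.5) minus the mean over the 9 libraries. T.chuii 1, DES 1 and CON 2 are low for most markers and for rods, cones and ganglion cells, and high for corneal epithelium, while Trpm1 is highest in CON 2.

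Trpm1 (chromosome 7, 64153835 to 64269772, mm10) had the most reads of the 10 genes. It was at 262.8, 350.7 and 295.5 CPM in the T.chuii libraries, 352.9, 326.3 and 236.1 CPM in the DES libraries, and 291.7, 469.2 and 313.1 CPM in the CON libraries. Its highest value was in CON 2 and its lowest in DES 3, so it did not follow the rod reads. The gene is also transcribed in melanocytes, in which it was first described as melastatin. Melanocyte genes, as a sum of 5, were at 3807, 2943 and 2548 CPM in the T.chuii libraries, 4017, 2468 and 2706 CPM in the DES libraries, and 3575, 5341 and 3420 CPM in the CON libraries. That sum was also highest in CON 2, and lay higher in T.chuii 1, DES 1 and CON 2 than in any of the other 6 libraries. Within the T.chuii group the 2 went opposite ways, T.chuii 1 having the lowest Trpm1 value and the highest melanocyte sum. The part of melanocyte RNA in the Trpm1 values was not tested.

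The annotation of the same build gives 2 lengths for the RefSeq transcripts of Trpm1 that the tables list. NM_001039104 has 27 exons and 5711 bases and begins at 64153835. NM_018752 has 14 exons and 2928 bases and begins 31624 bases further on, at 64185459. The 250 bases before each start are shown because Trpm1 is the marker that departed from the others and because its annotated transcripts begin at separate places. Sequences are from RefSeq (GRCm38.p6), plus strand. Capitals mark the CRX/OTX motif TAATCC on either strand (GGATTA on the reverse) and the E-box CANNTG, which is its own reverse complement.
Trpm1, first start, chr7:64153585-64153834: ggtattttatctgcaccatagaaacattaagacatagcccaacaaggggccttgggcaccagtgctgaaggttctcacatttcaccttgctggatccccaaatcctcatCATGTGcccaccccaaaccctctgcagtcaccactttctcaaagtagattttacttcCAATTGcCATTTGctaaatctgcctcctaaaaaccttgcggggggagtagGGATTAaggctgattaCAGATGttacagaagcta
Trpm1, second start, chr7:64185209-64185458: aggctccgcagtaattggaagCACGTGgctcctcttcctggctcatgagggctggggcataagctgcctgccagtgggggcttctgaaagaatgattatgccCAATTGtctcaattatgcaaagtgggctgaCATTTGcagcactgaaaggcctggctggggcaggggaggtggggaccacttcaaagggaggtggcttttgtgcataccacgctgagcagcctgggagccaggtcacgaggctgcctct
The first window held 1 TAATCC and 4 E-boxes. The E-box of the letters CATGTG lies inside TCATGTG, the M-box of pigment cell promoters, which was added to the search after the planned motifs. The second window held 3 E-boxes and neither TAATCC nor TCATGTG. Of 32851 mouse windows of this length, 6.25% held TAATCC, 66.2% held CANNTG and 3.25% held TCATGTG. A match describes the letters only.

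Prkca (chromosome 11, 107933387 to 108343888) was at 30.9, 69.4 and 62.8 CPM in the T.chuii libraries, 45.7, 70.9 and 48.1 CPM in the DES libraries, and 70.7, 34.4 and 57.9 CPM in the CON libraries. Its 3 lowest values were in T.chuii 1, CON 2 and DES 1, but DES 3 was close to them. Pcp2 (chromosome 8, 3623369 to 3625547) overlaps Pet100, so the division of reads between these genes is uncertain. It was at 37.0, 96.9 and 100.2 CPM in the T.chuii libraries, 40.2, 87.8 and 132 CPM in the DES libraries, and 117, 30.8 and 117 CPM in the CON libraries. T.chuii 1, DES 1 and CON 2 lay at 30.8 to 40.2 CPM and the other 6 libraries at 87.8 to 132 CPM, with no value between. The same uncertainty in the division of reads holds for Gad1 with Gad1os, Slc32a1 with Gm14204, Slc6a9 with Ccdc24 and Onecut1 with Gm38678, which also overlap.

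Cabp5 (chromosome 7, 13385960 to 13408887) was at 38.2, 125 and 155 CPM in the T.chuii libraries, 57.1, 149 and 139 CPM in the DES libraries, and 116, 53.0 and 133 CPM in the CON libraries. It followed the rods closely. Per 1000 rod reads it held 3.56, 3.49 and 3.90 reads in the T.chuii libraries, 3.19, 3.43 and 3.41 in the DES libraries, and 3.30, 2.83 and 3.66 in the CON libraries. The highest of these ratios was 1.38 times the lowest, against 4.07 times for its CPM. Of the 9 markers with a promoter window in the RefSeq table, Trpm1, Cabp5 and Gad1 held TAATCC, in 3 of 15 windows, and 12 of the 15 held CANNTG. The Cabp5 window, shown as the only one with 2 copies of TAATCC, precedes an annotated start inside the gene's span (plus strand, capitals as above).
Cabp5, chr7:13397905-13398154: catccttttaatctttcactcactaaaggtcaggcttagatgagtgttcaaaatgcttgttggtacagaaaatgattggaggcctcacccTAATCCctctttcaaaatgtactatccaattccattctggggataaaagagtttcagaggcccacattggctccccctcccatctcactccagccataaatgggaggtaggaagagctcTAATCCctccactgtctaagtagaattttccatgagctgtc
The motif is bound by CRX in photoreceptors and by OTX2 in photoreceptors and bipolar cells.

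Gad1 and Gad2 encode the enzymes that make GABA from glutamate. Gad1 (chromosome 2, 70561303 to 70602014) was at 26.8, 107 and 153 CPM in the T.chuii libraries, 44.9, 147 and 112 CPM in the DES libraries, and 120.5, 58.2 and 119.5 CPM in the CON libraries. Gad2 (chromosome 2, 22621015 to 22693877) was at 4.08, 19.3 and 27.5 CPM in the T.chuii libraries, 9.47, 28.0 and 20.9 CPM in the DES libraries, and 18.9, 11.9 and 29.7 CPM in the CON libraries. Both were lowest in T.chuii 1, and the highest value was 5.70 times the lowest for Gad1 and 7.28 times for Gad2. Among the other 6 libraries, without T.chuii 1, DES 1 and CON 2, these ratios were 1.43 for Gad1 and 1.57 for Gad2. Of the markers lowest in T.chuii 1, DES 1 and CON 2, Cabp5 and Gad1 held TAATCC. The windows of Prkca, Pcp2, Gad2, Slc32a1 and Onecut1 lacked it, and Calb1 has no window. Trpm1, which did not follow the rods, held it before its first start only. Whether the motif bears on these profiles was not tested. The Gad1 window, shown as the remaining one with TAATCC, also holds 1 E-box (plus strand, before a start inside the gene's span).
Gad1, chr2:70561879-70562128: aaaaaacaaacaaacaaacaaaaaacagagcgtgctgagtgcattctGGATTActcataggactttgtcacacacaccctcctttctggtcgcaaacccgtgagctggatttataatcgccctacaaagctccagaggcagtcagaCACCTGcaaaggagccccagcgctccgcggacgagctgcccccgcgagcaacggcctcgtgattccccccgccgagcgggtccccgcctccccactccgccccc

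Slc32a1 (chromosome 2, 158607260 to 158615747) encodes the transporter that loads GABA and glycine into synaptic vesicles. It had few reads, 25 to 137 per library, and was at 0.582, 2.23 and 1.85 CPM in the T.chuii libraries, 0.883, 2.24 and 1.46 CPM in the DES libraries, and 2.75, 0.809 and 2.3 CPM in the CON libraries. Slc6a9 (chromosome 4, 117835258 to 117869305) encodes a glycine transporter of the cell membrane, found in glycinergic amacrine cells and also outside the retina. It was at 33.1, 63.5 and 59.5 CPM in the T.chuii libraries, 44.9, 64.3 and 49.3 CPM in the DES libraries, and 81.4, 54.9 and 55.2 CPM in the CON libraries. In CON 2, Slc6a9 was as high as in CON 3, so it followed the rods only in part.

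Calb1 (chromosome 4, 15881264 to 15906709) encodes calbindin, a calcium buffer of horizontal cells and of some amacrine cells. It was at 26.4, 81.3 and 115 CPM in the T.chuii libraries, 33.2, 97.8 and 124 CPM in the DES libraries, and 84.6, 34.0 and 92.6 CPM in the CON libraries. As for Pcp2, T.chuii 1, DES 1 and CON 2 stood apart, with at most 34.0 CPM. Onecut1 (chromosome 9, 74861921 to 74889648), a transcription factor needed for the formation of horizontal cells, had 5 to 81 reads per library. It was at 0.116, 0.873 and 0.624 CPM in the T.chuii libraries, 0.181, 1.37 and 0.635 CPM in the DES libraries, and 0.641, 0.379 and 0.537 CPM in the CON libraries. At such counts a single value carries a large counting error.

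**Figure D2:**
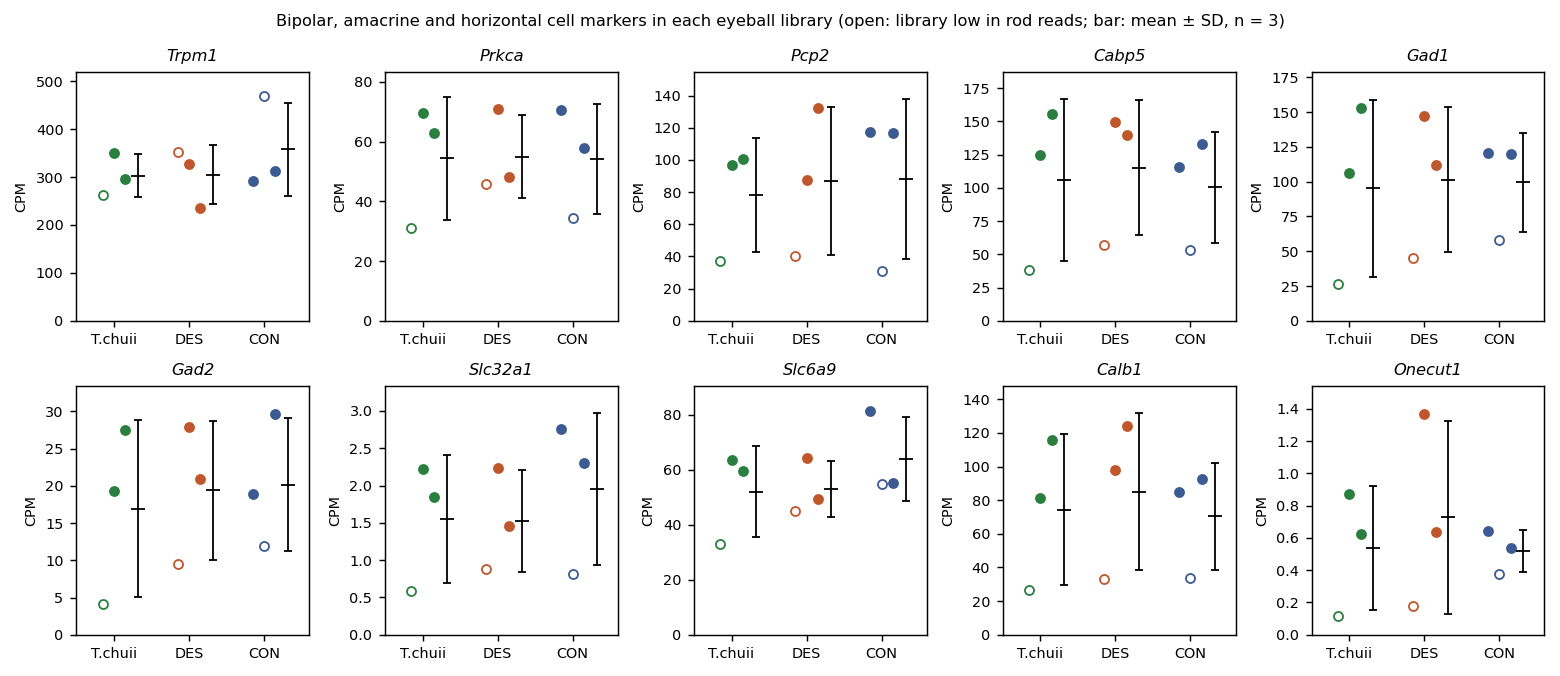
CPM of each marker gene (y axis, from 0) in the T.chuii, DES and CON libraries (points), with the mean ± SD of 3 libraries beside them. Open points are the libraries low in rod reads, T.chuii 1, DES 1 and CON 2, and they are the lowest of their group for the 9 genes other than Trpm1, with Slc6a9 in CON 2 close to CON 3.

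Levels were compared between genes per length, from the deposited FPKM values (fragments scaled to transcript length and library size), as the mean ± SD of the 9 libraries. Pcp2 was highest at 161 ± 76.8 FPKM, followed by Trpm1 at 81.8 ± 18.9 FPKM, and each of these was above the next gene in 6 of 9 libraries. Cabp5 at 58.5 ± 27.4 FPKM was above Gad1 at 29.0 ± 14.6 FPKM in all 9. Gad1 was above Calb1, at 25.8 ± 12.9 FPKM, in 7 of 9 libraries, and Calb1 was above Slc6a9, at 17.5 ± 5.40 FPKM, in 6 of 9. These neighbours thus did not keep their order in every library. Pcp2 was below Trpm1, and Calb1 below Slc6a9, only in T.chuii 1, DES 1 and CON 2, the libraries low in rod reads. Slc6a9 was above Prkca at 6.30 ± 2.22 FPKM, and Prkca above Gad2 at 3.27 ± 1.74 FPKM, in all 9 libraries. Slc32a1 at 0.475 ± 0.268 FPKM and Onecut1 at 0.313 ± 0.223 FPKM were lowest, Gad2 being above Slc32a1 in all 9 libraries and Slc32a1 above Onecut1 in 8 of 9.

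The FPKM value that a read was worth differed between libraries for Trpm1. Relative to the median gene of the same library, the ratio of FPKM to CPM was 0.897, 0.722 and 0.753 in the T.chuii libraries, 0.833, 0.774 and 0.756 in the DES libraries, and 0.781, 0.866 and 0.837 in the CON libraries. The highest ratio was 1.24 times the lowest. For the other 7 markers with enough reads it was 1.008 to 1.05 times, and for the median of 13169 genes with at least 5 CPM 1.02 times. Of those genes, 1143 (8.68%) varied as much as Trpm1 or more. Slc32a1 reached 1.36 times and Onecut1 1.19 times, both at low counts. The ratio was highest in T.chuii 1 and CON 2, while DES 1 lay just below CON 3. How FPKM was formed over the Trpm1 transcripts was not stated in the labels or headers, and whether their shares differed between libraries was not tested.

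**Figure D3:**
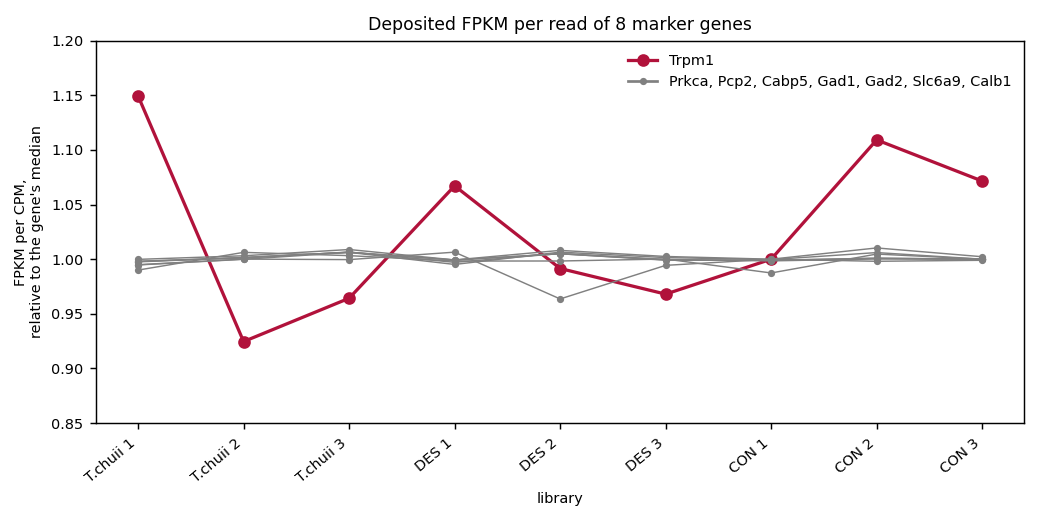
Deposited FPKM per CPM of 8 marker genes in each of the 9 libraries (x axis), divided by the gene's median over libraries (y axis, which does not start at 0). The grey lines of the other 7 genes stay close to 1, while Trpm1 (red) is highest in T.chuii 1 and CON 2.

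T.chuii against DES bears on the alga, since all mice in it were injected. In this comparison 0 of the 10 markers passed limma-voom at an adjusted p of 0.05, and 0% of the 21287 genes did. At an unadjusted p under 0.05 there were 0 markers and 233 genes (1.09%), and 267 genes by limma on log2 FPKM, which also called none. Groups overlapped for all 10 markers, while 4.8% of genes had groups that did not. Trpm1 averaged 303 ± 44.4 CPM in T.chuii and 305 ± 61.2 CPM in DES (SD, n = 3 each), a log2 fold change of 0.01 ± 0.26 (SE, 95% interval -0.56 to 0.58). Cabp5 averaged 106 ± 60.8 CPM in T.chuii and 115 ± 50.6 CPM in DES, a log2 fold change of -0.23 ± 0.57. Gad1 averaged 95.3 ± 63.7 CPM in T.chuii and 101 ± 52.0 CPM in DES, a log2 fold change of -0.26 ± 0.63. Calb1 averaged 74.4 ± 44.9 CPM in T.chuii and 85.0 ± 46.7 CPM in DES, a log2 fold change of -0.23 ± 0.63. Gad2 had the lowest value of the 10, at -0.42 ± 0.67. The median over the markers was -0.18, with 9 of 10 below 0, against -0.03 over all genes, of which 54.9% were below 0. With same-numbered T.chuii and DES libraries as pairs, 2 genes passed, the myelin gene Mobp (6.79 ± 0.32, adjusted p = 8.21e-05) and Nmrk2 (2.01 ± 0.19, adjusted p = 0.0195). Neither is a marker of these cells, and both were named after their values were seen. The pairs were taken from correlations in these same data and not from the labels, so these p-values are not those of a planned test. Mobp was at 0.688, 143 and 3.81 CPM in CON 1, CON 2 and CON 3.

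DES against CON bears on scopolamine, and the drug cannot be told apart from the injection in it. Here 0 of the 10 markers and 0% of all genes passed limma-voom. At an unadjusted p under 0.05 there were 0 markers and 235 genes (1.1%), and 294 genes by limma on log2 FPKM. Groups overlapped for all 10 markers, against 3.65% of genes with groups that did not. Trpm1 averaged 305 ± 61.2 CPM in DES and 358 ± 96.9 CPM in CON, a log2 fold change of -0.22 ± 0.26, which was -0.014 without CON 2. Pcp2 averaged 86.7 ± 46.0 CPM in DES and 88.2 ± 49.7 CPM in CON, a log2 fold change of 0.05 ± 0.61. Slc6a9 averaged 52.8 ± 10.2 CPM in DES and 63.9 ± 15.2 CPM in CON, a log2 fold change of -0.27 ± 0.29. Markers lay on both sides of 0, with 5 below it, and their median was -0.01 against -0.02 over all genes (52.4% below 0).

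Set against CON, T.chuii combines the injection and the alga, and the comparison shares its libraries with the other 2. Again 0 of the 10 markers and 0% of all genes passed limma-voom, with 0 markers and 912 genes (4.28%) at an unadjusted p under 0.05, and 1083 genes by limma on log2 FPKM. All 10 markers had overlapping groups, against 8.42% of genes with groups that did not overlap. Prkca averaged 54.4 ± 20.6 CPM in T.chuii and 54.3 ± 18.4 CPM in CON, a log2 fold change of -0.02 ± 0.36. Gad2 averaged 17.0 ± 11.9 CPM in T.chuii and 20.2 ± 8.96 CPM in CON, a log2 fold change of -0.51 ± 0.66. Slc32a1 averaged 1.55 ± 0.862 CPM in T.chuii and 1.95 ± 1.02 CPM in CON, a log2 fold change of -0.33 ± 0.61. Onecut1 averaged 0.538 ± 0.385 CPM in T.chuii and 0.519 ± 0.132 CPM in CON, but its log2 fold change in the fit was -0.29 ± 0.81, the mean of raw values and the fitted value differing in sign. All 10 fitted values were below 0, with a median of -0.25, against -0.04 over all genes (55.4% below 0). The smallest adjusted p of a marker in any of the 3 comparisons was 0.986 (limma-voom). A p above the threshold does not show that the groups were alike, and the 95% intervals of the 10 markers reached from -2.09 to 1.52 on the log2 scale here.

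**Figure D4:**
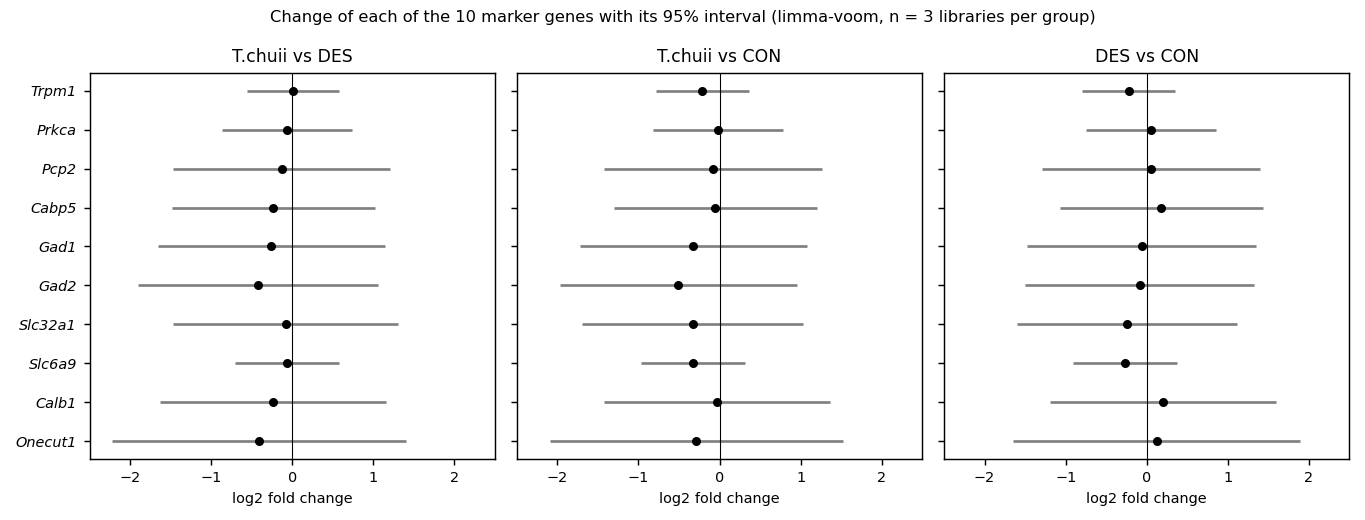
Log2 fold change of each marker gene (points) with its 95% interval (lines) for T.chuii vs DES, T.chuii vs CON and DES vs CON, from limma-voom with 3 libraries per group. Every interval includes 0, and the intervals of Trpm1, Slc6a9 and Prkca are the narrowest.

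These intervals were narrower without the libraries low in rod reads. Without T.chuii 1, DES 1 and CON 2, which leaves 2 per group, the median standard error over the markers in T.chuii vs DES was 0.24, against 0.62 with all 9. The fitted log2 fold changes then lay between -0.41 and 0.22 in T.chuii vs DES, between -0.44 and 0.72 in DES vs CON, and between -0.32 and 0.32 in T.chuii vs CON. The farthest of them, 0.72 in DES vs CON, was that of Onecut1, the gene with the fewest reads. No marker passed the test. With the rod share of each library in the model, the ranges were -0.09 to 0.23, -0.42 to 0.12 and -0.25 to 0.20, the smallest adjusted p was 0.610, and 7 of 10 markers were above 0 in T.chuii vs DES. Signs of the small differences also turned when single libraries were left out and under other settings.

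Reads of the markers were also set against the rod reads of the same library. The 4 inhibitory markers together held 6.03, 5.37 and 6.06 reads per 1000 rod reads in the T.chuii libraries, 5.59, 5.56 and 4.49 in the DES libraries, and 6.39, 6.71 and 5.71 in the CON libraries. The means were 5.82 ± 0.391 in T.chuii, 5.21 ± 0.628 in DES and 6.27 ± 0.511 in CON (SD, n = 3). Per rod read, the 3 DES values lay below the 3 CON values, while T.chuii overlapped with CON and with DES. This separation was picked out from several sums and comparisons. By CPM, 3.65% of single genes had DES and CON groups that did not overlap. The share of genes that separate per rod read was not computed, so the separation is not a result about these markers. The difference of DES from CON was -0.27 on the log2 scale (SD 0.15), and this sum was not tested. In other units DES and CON overlapped. Per 1000 cone reads, DES 1 at 222 and DES 2 at 204 lay above CON 3 at 149. Per 1000 rod FPKM, DES 1 at 3.65 lay above CON 3 at 3.38. Within the sum, the highest ratio to rod reads was 1.53 times the lowest for Gad1, 2.15 times for Gad2, 2.20 times for Slc32a1 and 2.56 times for Slc6a9. Calb1 and Onecut1 together held 2.48, 2.3 and 2.91 in the T.chuii libraries, 1.86, 2.28 and 3.05 in the DES libraries, and 2.44, 1.83 and 2.57 in the CON libraries. Their means of 2.56 ± 0.315 in T.chuii, 2.40 ± 0.602 in DES and 2.28 ± 0.393 in CON overlapped within their spread.

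The 4 bipolar markers, of whose reads most were Trpm1, held 34.5, 18.0 and 15.4 reads per 1000 rod reads in the T.chuii libraries, 27.7, 14.6 and 13.6 in the DES libraries, and 17.0, 31.3 and 17.1 in the CON libraries. T.chuii 1, DES 1 and CON 2 were the 3 highest. Trpm1 alone held 24.6, 9.82 and 7.41 in the T.chuii libraries, 19.7, 7.50 and 5.78 in the DES libraries, and 8.34, 25.0 and 8.65 in the CON libraries. Prkca held 2.89, 1.95 and 1.58 in the T.chuii libraries, 2.55, 1.63 and 1.18 in the DES libraries, and 2.02, 1.84 and 1.60 in the CON libraries. Slc6a9 held 3.09, 1.78 and 1.49 in the T.chuii libraries, 2.51, 1.48 and 1.21 in the DES libraries, and 2.33, 2.93 and 1.53 in the CON libraries. Trpm1 and Slc6a9 were thus high per rod read in all 3 libraries that were low in rods, and Prkca in T.chuii 1 and DES 1. These libraries were singled out by their low rod reads, which are the divisor here. A gene that falls less than the rods is high per rod read in them by construction. In CPM, the 4 bipolar markers summed to 369, 496 and 587 in T.chuii 1, DES 1 and CON 2, against 556 to 642 in the other 6 libraries. The sum of 14 other bipolar genes was 293, 373 and 376 CPM in T.chuii 1, DES 1 and CON 2, against 672 to 825 CPM in the other 6.

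**Figure D5:**
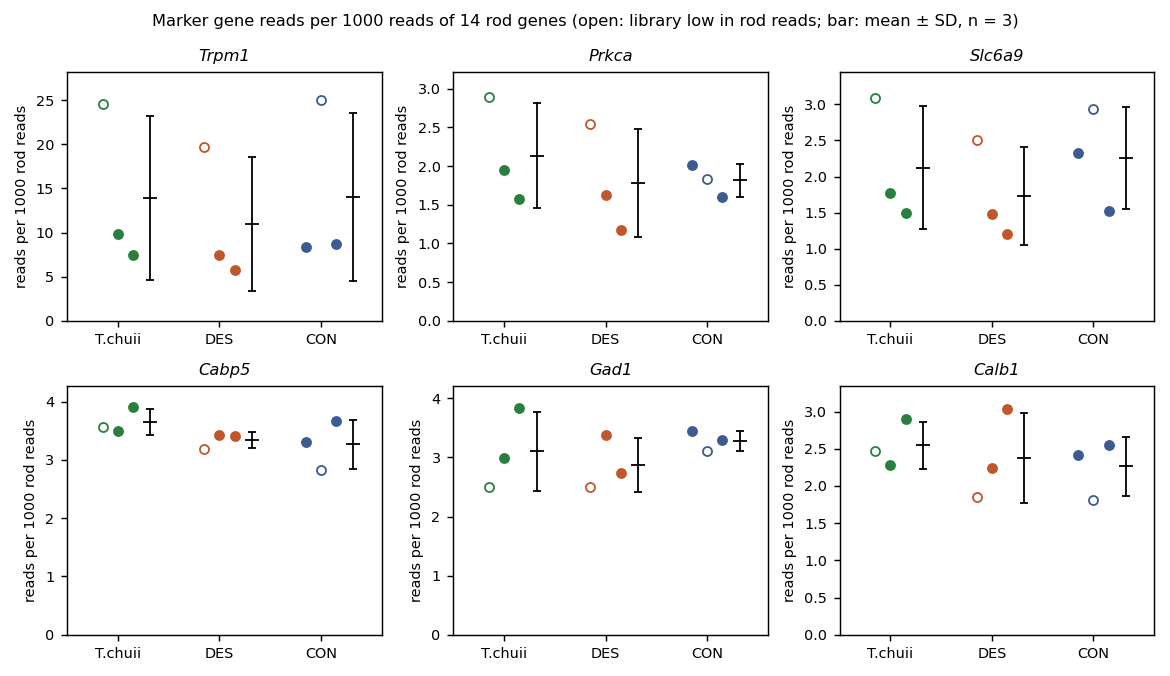
Reads of 6 marker genes per 1000 reads of 14 rod genes (y axis, from 0) in the T.chuii, DES and CON libraries (points), with the mean ± SD of 3 libraries. Trpm1 is at 19.7 or more in the libraries low in rod reads (open points) and at 9.82 or less in the others, while the highest value is 1.38 times the lowest for Cabp5, 1.53 times for Gad1 and 1.67 times for Calb1.

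Other genes of the same pathways also showed no change that passed the test. In the mGluR6 cascade of ON bipolar cells, 0 of 11 genes passed in any comparison, with median log2 fold changes of -0.09 in T.chuii vs DES, 0.02 in DES vs CON and -0.11 in T.chuii vs CON. Gnb3, the beta subunit of the cascade's G protein, averaged 367 ± 172 CPM in T.chuii, 337 ± 113 CPM in DES and 392 ± 112 CPM in CON. Gnb5, a partner of the RGS proteins that end the signal, averaged 335 ± 171 CPM in T.chuii, 378 ± 146 CPM in DES and 352 ± 87.8 CPM in CON, and Rgs9bp, which anchors such proteins, 77.3 ± 44.6, 83.2 ± 33.6 and 80.4 ± 26.5 CPM in the same groups. In the handling of GABA and glycine, 0 of 10 genes passed. Glul, the glutamine synthetase of Müller glia, averaged 456 ± 36.0 CPM in T.chuii, 402 ± 13.1 CPM in DES and 490.1 ± 59.8 CPM in CON, and Gphn, the scaffold of inhibitory synapses, 59.8 ± 12.3, 63.8 ± 12.0 and 57.8 ± 12.9 CPM in the same groups.

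Further markers of the 3 cell classes likewise did not pass. Of the bipolar list, 0 of 14 passed in any comparison, and Scgn, which encodes the calcium-binding protein secretagogin, averaged 68.2 ± 41.1 CPM in T.chuii, 79.4 ± 40.8 CPM in DES and 66.2 ± 35.5 CPM in CON. Of the amacrine list, 0 of 23 passed, and Pax6, a transcription factor of amacrine cells that the cornea and lens also use, averaged 298 ± 46.0 CPM in T.chuii, 309 ± 31.6 CPM in DES and 331 ± 51.8 CPM in CON. Of the horizontal list, 0 of 8 passed, and Prox1, a transcription factor of horizontal cells that is also active in the lens, averaged 57.3 ± 22.0 CPM in T.chuii, 54.0 ± 1.04 CPM in DES and 38.0 ± 15.2 CPM in CON. Prox1 was at 32.9, 75.6 and 63.5 CPM in the T.chuii libraries, 53.6, 55.2 and 53.2 CPM in the DES libraries, and 46.0, 20.4 and 47.5 CPM in the CON libraries. Lens reads were also lowest in CON, and in the DES libraries the lens genes summed to 43068, 369 and 38740 CPM. The part of lens RNA in the Prox1 values was not tested. Sept4 averaged 127 ± 45.7 CPM in T.chuii, 131 ± 42.7 CPM in DES and 123 ± 30.5 CPM in CON. Tfap2b, a transcription factor of amacrine and horizontal cells, averaged 72.8 ± 13.5 CPM in T.chuii, 62.4 ± 20.2 CPM in DES and 79.8 ± 22.6 CPM in CON, the opposite order of DES and CON from Prox1.

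Of the genes with at least 5 CPM outside the 10, those with a profile over the 9 libraries most like the mean of the markers were Gucy1a1, Psg16, Slc16a6, Zcchc18, Lingo2, Ric3, Grm6, Pcbp3, Elmo1 and Wdr31. Their mean absolute difference in centred log2 CPM was 0.05 to 0.07, against a median of 0.54 over 13161 genes. Grm6 encodes mGluR6 itself and was at 13.0, 34.3 and 36.6 CPM in the T.chuii libraries, 20.6, 42.5 and 33.6 CPM in the DES libraries, and 40.6, 20.9 and 35.9 CPM in the CON libraries. The receptor was thus low in T.chuii 1, DES 1 and CON 2, whereas Trpm1, the channel it controls, was highest in CON 2. The genes most like Trpm1, a comparison chosen after its values were seen, were Trim26, Ints3, Ighmbp2, Xrcc1 and Cxxc1, at differences of 0.04 to 0.05 against a median of 0.30.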

How the data were processed

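RNA of whole eyeballs was sequenced from stranded mRNA libraries, per the labels' protocols. The submitters' processing notes name the build mm10 and the tools HISAT2 2.1.0, StringTie 2.1.3b, Trimmomatic 0.38, FastQC 0.11.7 and Bowtie2 2.3.4.1. The counting step and its strand setting are not given in the sources used here. The deposited tables hold a whole-number read count and an FPKM value per gene, per the file headers, taken as the last cells of a row because rows differ in their number of cells. The smallest count was 1. Columns could not be recorded as counts by header position, so limma-voom was the main test.

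Genes were kept at the equivalent of 10 reads in a median library in at least 3 libraries and 15 reads in total (21287 of 22587, all 10 markers included). Library sizes were adjusted by the trimmed mean of M-values (own code). The test used limma 3.58.1 (R 4.3.3) on the 3 groups together, with 9 libraries and 6 residual degrees of freedom, two-sided, adjusted by Benjamini-Hochberg over all genes at 0.05. Log2 FPKM with a pseudocount of 0.1 was tested with limma as an alternative. Other steps used pandas 2.3.3, matplotlib 3.10.9 and Python 3.11.15. Coordinates and promoter windows are from RefSeq GRCm38.p6, the same assembly as mm10. Calb1 has no window there.

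The markers and lists were chosen with earlier results of these data known. From each list the 3 genes with the highest mean CPM were eligible to be named, together with the 10 genes nearest in profile to the markers. Some of these genes are not reported here.

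Library numbers are those of the sample titles, and the file headers number the eyes otherwise. Deviations from the group means correlated between same-numbered T.chuii and DES libraries (r = 0.635, 0.411 and 0.197 across genes), so those numbers were treated as pairs. The numbers are a weak guide, since T.chuii 3 and DES 2 correlated at 0.552, T.chuii 1 and CON 2 at 0.5, and DES 1 and CON 2 at 0.535. With CON they did not in every pair (r = -0.361, -0.421 and 0.345 with T.chuii, and -0.382, -0.28 and 0.324 with DES).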

Additional observations from a re-analysis of the deposited data

How the results depend on the processing

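Of 607 marker changes under 21 alternatives, none passed the threshold and 96 had the opposite sign. Counts of called genes moved from 0 to 12 in T.chuii vs CON with only those groups fitted, to 1 (AA386476) in T.chuii vs DES and in T.chuii vs CON without T.chuii 1, DES 1 and CON 2, and to 2 in T.chuii vs DES with the replicate block. The block of those groups alone was added after the data were seen, and the block over all 9 libraries called 0 genes. With 1 library left out, counts were 0 to 15 in DES vs CON and 0 to 17 in T.chuii vs CON, the higher values without DES 2 and 0 without any other library. The cause was not tested. Precision is lowest for Onecut1 and Slc32a1, which have the fewest reads.

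Without T.chuii 1, DES 1 and CON 2, signs turned in T.chuii vs DES for Prkca (0.18), Slc32a1 (0.12) and Slc6a9 (0.13), in DES vs CON for Prkca (-0.15), Pcp2 (-0.12), Gad1 (0.079) and Gad2 (0.015), and in T.chuii vs CON for Trpm1 (0.079), Prkca (0.031), Cabp5 (0.16), Gad1 (0.072), Calb1 (0.12) and Onecut1 (0.32). With the rod share in the model they turned in T.chuii vs DES for Trpm1 (-0.022), Prkca (0.12), Pcp2 (0.20), Cabp5 (0.11), Gad1 (0.13), Slc32a1 (0.23), Slc6a9 (0.066) and Calb1 (0.13), in DES vs CON for Prkca (-0.017) and Pcp2 (-0.074), and in T.chuii vs CON for Prkca (0.10), Pcp2 (0.12), Cabp5 (0.17), Calb1 (0.20) and Onecut1 (0.032). On log2 FPKM, Trpm1 in T.chuii vs DES was -0.020 at either pseudocount, and Prkca and Pcp2 in DES vs CON were -0.014 and -0.0080 (pseudocount 0.1, with or without a filter) or -0.017 and -0.0094 (pseudocount 1). The block gave Gad2 0.014 in DES vs CON, and a stricter filter gave Prkca 0.035 and Calb1 0.011 in T.chuii vs CON and left Onecut1 untested. Per cone read, the inhibitory markers differed by -0.49 in DES vs CON and -0.25 in T.chuii vs CON (log2), with overlapping groups in each. No other call changed with the block.

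With 1 library left out at a time, changes in T.chuii vs DES ranged from -0.17 to 0.12 for Trpm1, -0.25 to 0.31 for Prkca, -0.61 to 0.36 for Pcp2, -0.68 to 0.40 for Cabp5, -0.76 to 0.51 for Gad1, -0.98 to 0.40 for Gad2, -0.44 to 0.51 for Slc32a1, -0.20 to 0.25 for Slc6a9, -0.81 to 0.40 for Calb1 and -1.20 to 0.43 for Onecut1. In DES vs CON they ranged from -0.36 to -0.014 for Trpm1 (the last without CON 2), -0.40 to -0.077 for Slc6a9, -0.25 to 0.27 for Prkca, -0.58 to 0.53 for Pcp2, -0.22 to 0.62 for Cabp5, -0.41 to 0.44 for Gad1, -0.44 to 0.37 for Gad2, -0.80 to 0.11 for Slc32a1, -0.26 to 0.78 for Calb1 and -0.56 to 0.91 for Onecut1. In T.chuii vs CON they ranged from -0.35 to -0.0053 for Trpm1 (the last without CON 2), -0.45 to -0.030 for Slc6a9 (the last without T.chuii 1), -0.32 to 0.35 for Prkca, -0.72 to 0.39 for Pcp2, -0.46 to 0.57 for Cabp5, -0.82 to 0.43 for Gad1, -1.07 to 0.30 for Gad2, -0.88 to 0.26 for Slc32a1, -0.50 to 0.59 for Calb1 and -0.75 to 0.54 for Onecut1.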
